A study of Mus musculus with 45 samples.

Results

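Expression of 8 enzymes of cholesterol synthesis, Hmgcs1, Idi1, Fdps, Fdft1, Sqle, Cyp51, Nsdhl and Dhcr7, was followed in 3 mouse tissues, the liver, skeletal muscle and the epididymal fat pad. They were chosen by gene symbol, and every probe set annotated to one of these symbols alone was taken. This gave 13 probe sets of the 10833 on the array with a single symbol, and 8 genes of 8251. No gene of LDL uptake is among the 8. The mice, aged 6 months, belonged to C57Bl/6 (B6) or to 129S6/SvEvTac (129S6), both inbred, and each strain was kept on either diet, low-fat or high-fat. A diet in which fat supplied 21% of calories, protein 22% and carbohydrate 57% is described in the design text, without saying which diet it was. The other diet's composition is not given there. RNA of 2 to 3 mice was pooled for each array, so the errors below describe pools and not single mice, and no label says more about how the pools were made. There were 45 arrays in 12 groups of tissue, strain and diet. Each group had 4 arrays, except that muscle of B6 on low-fat, fat of 129S6 on low-fat and fat of 129S6 on high-fat had 3.

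Cells make cholesterol from acetyl-CoA through mevalonate, isoprenoid diphosphates, squalene and lanosterol. The genes of the pathway are switched on together by SREBP-2, a transcription factor that is released from the endoplasmic reticulum when membrane sterol is low. Liver is a main site of whole-body cholesterol synthesis, while fat cells hold much of their free cholesterol in and around the lipid droplet. Hmgcs1, cytosolic HMG-CoA synthase, acts first among the 8. Idi1 isomerises isopentenyl diphosphate, Fdps joins isoprene units into farnesyl diphosphate, and Fdft1, squalene synthase, commits farnesyl diphosphate to sterols. Sqle, squalene epoxidase, opens the way to lanosterol, Cyp51 removes a methyl group from lanosterol, Nsdhl takes part in the removal of further methyl groups, and Dhcr7, a reductase, makes cholesterol in the last step of a branch of the pathway.

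Values are log2 signals made by the authors with RMA, and array medians ran from 6.07 to 6.24. Differences were taken as high-fat less low-fat for diet and as B6 less 129S6 for strain. They are in log2 units ± SE from limma, with the p-value adjusted by Benjamini and Hochberg over all 8251 genes, each read by its brightest probe set in the tissue, unless stated. A gene is said to differ, rise or fall where that adjusted p is under 0.05. Whether groups of an enzyme overlapped is a description, and the share of all genes without overlap was not counted. Hepatocyte, muscle and adipocyte markers were each brightest in the tissue of their name. Summed macrophage markers ran from 10.7 to 13.2 across the fat arrays. Markers of epididymis ran from 6.98 to 12.7 there. On 3 fat arrays, all of high-fat groups, the 3' control probe set of Gapdh stood 5.81 to 6.03 above the 5' one, and on the other 11 the gap was at most 2.36. The liver array of 129S6 low-fat replicate 11 had a gap of 3.26, and the muscle arrays of 129S6 high-fat replicate 1 and B6 high-fat replicate 5 had gaps of 4.43 and 3.36. In muscle, the 4 B6 high-fat arrays and 129S6 low-fat replicate 9 had a smaller spread over probe sets (SD 1.57 to 1.70) than the other 10 (1.80 to 1.88). Numbers in the sample names form 3 runs of liver arrays (L1, L2 and L3) and 2 of fat arrays (F1 and F2), and whether a run was processed together is not stated there. Where leaving out these arrays, or blocking on the runs, moved a count of enzymes called, that value is given. The count for diet in 129S6 fat without them is not, because 1 high-fat array was left.

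RefSeq's promoter windows (build GRCm38.p6, 250 bases before to 50 bases after a gene's start) covered 5 of the 8 genes. Fdps, Fdft1 and Sqle are named only. The windows of Hmgcs1, Idi1 and Cyp51 are shown. Idi1 and Cyp51 are the enzymes that rose in fat with the strains averaged, each read by its brightest probe set. Hmgcs1, chosen for its letters, holds an exact sterol regulatory element core. The windows of Dhcr7, which rose with the diet in B6 fat, were searched but are not shown. The gene Hmgcs1 lies at chr13:119690351-119708260, and its window at chr13:119690101-119690400 on the plus strand. Idi1 lies at chr13:8885606-8892396, with its window at chr13:8885356-8885655 on the plus strand. Cyp51 lies at chr5:4080674-4104697, with its window at chr5:4104648-4104947 on the minus strand. Capitals mark the sterol regulatory element core (TCACNCCAC) and the CCAAT box (CCAAT), searched on both strands. The sequences run 5' to 3' along the gene's strand.
Hmgcs1: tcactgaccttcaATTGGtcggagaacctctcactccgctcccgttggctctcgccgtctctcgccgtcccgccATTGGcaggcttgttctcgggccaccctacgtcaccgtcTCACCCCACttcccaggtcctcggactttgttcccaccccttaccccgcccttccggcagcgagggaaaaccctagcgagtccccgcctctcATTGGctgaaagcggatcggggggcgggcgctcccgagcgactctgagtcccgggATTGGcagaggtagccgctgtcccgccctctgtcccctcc
Idi1: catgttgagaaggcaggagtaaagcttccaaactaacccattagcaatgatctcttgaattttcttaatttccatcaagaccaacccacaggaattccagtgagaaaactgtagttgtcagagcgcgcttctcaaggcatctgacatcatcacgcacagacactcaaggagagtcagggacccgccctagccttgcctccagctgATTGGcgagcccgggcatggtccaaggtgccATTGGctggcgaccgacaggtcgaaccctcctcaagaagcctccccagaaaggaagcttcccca
Cyp51: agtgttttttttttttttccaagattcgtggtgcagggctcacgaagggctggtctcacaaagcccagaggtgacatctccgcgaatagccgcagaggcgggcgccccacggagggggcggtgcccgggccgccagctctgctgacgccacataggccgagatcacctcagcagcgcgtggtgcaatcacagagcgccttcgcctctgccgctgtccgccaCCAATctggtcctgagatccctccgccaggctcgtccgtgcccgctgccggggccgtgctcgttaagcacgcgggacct
The core TCACNCCAC was found once, in Hmgcs1 at bases -137 to -129 from the start (TCACCCCAC), and 1.24% of all 32851 windows hold it. With 1 mismatch allowed it was also found in Cyp51, Nsdhl and a window of Dhcr7, but 24.2% of all windows have it then. CCAAT boxes numbered 4 in Hmgcs1, 2 in Idi1, 1 in Cyp51 and 4 in Nsdhl. A window of Dhcr7 held 2 as well. At least 1 box is in 37.4% of all windows and at least 2 in 11.7%. These are matches of letters in a short window, and the arrays measured no binding.

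The enzymes were expressed at higher levels in liver than in muscle, and most were at a middle level in fat. In a fit over all 45 arrays, all 8 were higher in liver than in muscle, against 24.6% of all genes (68% differed in either direction). Fdps by 99098_at and Idi1 were furthest apart among the probe sets used. Fdps by its probe set 99098_at ran from 10.06 to 11.12 in liver with a median of 10.81, and from 6.22 to 8.26 in muscle with a median of 7.52. The ranges were far apart, with a difference of 3.48 ± 0.16 or 11.1-fold (adjusted p = 8.41e-21), while its other bright probe set, 160424_f_at, gave 2.53 ± 0.10 or 5.77-fold. Idi1 ran from 9.22 to 10.73 in liver (median 9.71) and from 5.61 to 6.98 in muscle (median 6.26), again without overlap and 11.1-fold apart. Fdft1 had the smallest difference, 0.91 ± 0.08, between a range of 8.81 to 9.75 in liver and one of 7.71 to 8.69 in muscle. In tissue pieces, fewer cells of a type and less RNA per cell cannot be told apart. No run of array numbers was shared between tissues, so tissue and run cannot be told apart in these differences either.

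For 6 of the 8 enzymes, Idi1, Fdps, Sqle, Cyp51, Nsdhl and Dhcr7, fat was called both lower than liver and higher than muscle. Against fat, 7 of the 8 were higher in liver, where 28.7% of all genes were higher and 57.7% differed. The exception was Hmgcs1, which ran from 7.83 to 10.65 in fat (median 9.17) and from 7.90 to 9.92 in liver (median 9.18). Its difference of -0.28 ± 0.17 (95% interval -0.63 to 0.07) was not called (adjusted p = 0.162). Idi1, the next in the pathway among the 8, was 3.87-fold higher in liver (1.95 ± 0.12). Against muscle, 7 were higher in fat, where 30.4% of all genes were higher and 71.5% differed. Fdft1 was lower in fat than in muscle (-0.22 ± 0.08, adjusted p = 0.0132), a call that ends without 129S6 high-fat fat replicate 13 (adjusted p = 0.0523). Nsdhl has 3 probe sets, and by 98630_at it did not differ between liver and fat (0.05 ± 0.13, adjusted p = 0.783 over all probe sets), against 0.79 ± 0.23 by 98631_g_at and 0.67 ± 0.18 by 93868_at, both called. All 3 of its probe sets were higher in liver than in muscle. Dhcr7 ran from 5.58 to 7.52 in liver, from 4.14 to 6.66 in fat and from 4.03 to 4.78 in muscle, so the fat range reached into those of both other tissues.

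**Figure D1:**
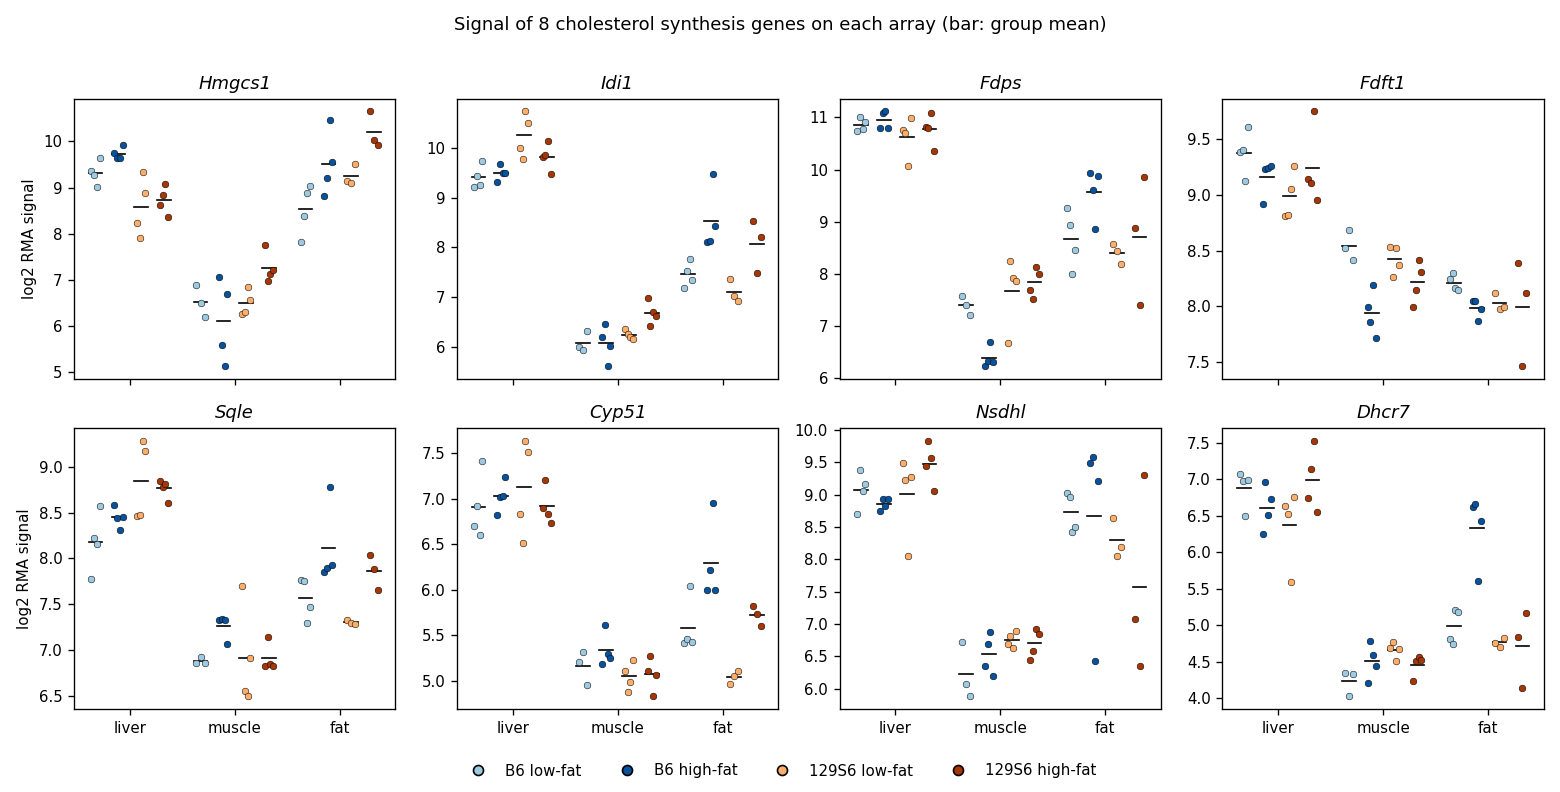
Signal of each enzyme in log2 units (vertical axes, which differ between panels and do not start at 0) on every array of the 12 groups, by tissue, with points for arrays and bars for group means. Fdps is shown by 99098_at and Nsdhl by 98631_g_at; all 8 sit higher in liver than in muscle.

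In fat, the isomerase Idi1 and the demethylase Cyp51 rose on the high-fat diet, and 5 of the 8 enzymes (Hmgcs1, Idi1, Fdps, Sqle and Cyp51) had a positive difference in both strains. With the strains averaged, 2 of the 8 rose (4.14% of all genes differed and 2.76% were higher), Idi1 by 1.02 ± 0.22 or 2.03-fold (adjusted p = 0.0255) and Cyp51 by 0.69 ± 0.16 or 1.61-fold (adjusted p = 0.0306). The median difference of the 8 was 0.63, against -0.02 over all genes. Hmgcs1 (0.97 ± 0.26, adjusted p = 0.0519), Sqle (0.55 ± 0.15, adjusted p = 0.0534) and Dhcr7 (0.65 ± 0.19, adjusted p = 0.0728) had differences of the same sign that missed the threshold. At an unadjusted p under 0.05, 5 of the 8 were counted, all higher, against 26.9% of all genes in either direction. Idi1 missed the threshold without any 1 of 7 of the 14 fat arrays (B6 low-fat 1, 3 or 5, 129S6 low-fat 9, 10 or 11, or 129S6 high-fat 12), with an adjusted p of up to 0.0812. Cyp51 did so without these or 129S6 high-fat 13 (up to 0.0859). Cyp51 was dim in fat, with a mean of 5.70 at percentile 31.7 of genes, and was not tested where dim genes were left out. Over the 14 fits that left out an array, 0 to 5 of the 8 were called. The count was 5 without B6 high-fat replicate 7 (Hmgcs1, Idi1, Sqle, Cyp51 and Dhcr7, all higher). The share of all genes called in that fit is not given here. The average over strains was added after the data were seen.

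Idi1 in B6 fat read 7.19, 7.53, 7.77 and 7.34 on the low-fat diet and 8.12, 8.13, 9.46 and 8.42 on the high-fat diet. In 129S6 fat it read 7.36, 7.02 and 6.92 on low-fat and 8.54, 7.48 and 8.21 on the high-fat diet. Every high-fat array was above every low-fat array of its strain. The difference was 1.07 ± 0.29 in B6 (adjusted p = 0.168) and 0.97 ± 0.34 in 129S6 (adjusted p = 0.235). Cyp51 in B6 fat read 5.42, 5.46, 6.04 and 5.42 on the low-fat diet and 6.00, 6.21, 6.95 and 5.99 on the high-fat diet, and the groups overlapped through low-fat replicate 4. In 129S6 fat it read 4.97, 5.05 and 5.11 on low-fat and 5.82, 5.74 and 5.60 on the high-fat diet, without overlap. The differences were 0.70 ± 0.20 in B6 (adjusted p = 0.202) and 0.67 ± 0.24 in 129S6 (adjusted p = 0.236). The interval of the difference between the strains ran from -0.86 to 1.06 for Idi1 and from -0.64 to 0.70 for Cyp51.

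Hmgcs1, the entry enzyme, read 7.83, 8.38, 8.89 and 9.03 in B6 fat on the low-fat diet and 8.82, 9.21, 10.47 and 9.55 on the high-fat diet. In 129S6 it read 9.13, 9.09 and 9.51 on low-fat and 10.65, 10.04 and 9.92 on the high-fat diet. The B6 groups overlapped and the 129S6 groups did not, with differences of 0.98 ± 0.34 and 0.96 ± 0.39. Sqle read 7.76, 7.75, 7.29 and 7.47 in B6 on low-fat, and 7.85, 7.89, 8.78 and 7.93 on the high-fat diet. In 129S6 it read 7.32, 7.30 and 7.28 on low-fat, and 8.04, 7.88 and 7.66 on the high-fat diet. Neither strain's groups overlapped, and the differences were 0.54 ± 0.19 and 0.56 ± 0.22. Fdft1, squalene synthase, had differences below 0. It read 8.25, 8.30, 8.16 and 8.15 in B6 fat on the low-fat diet and 8.05, 8.04, 7.86 and 7.98 on the high-fat diet. Its difference was -0.23 ± 0.16 in B6 and -0.04 ± 0.18 in 129S6 (adjusted p = 0.456 and 0.938), and the 95% interval of the average ran from -0.40 to 0.13.

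Dhcr7, the reductase of the last step, was the only enzyme called within a strain in fat by its brightest probe set. It was dim in fat, with a mean of 5.26 at percentile 23.5 of genes, and was not tested where dim genes were left out. In B6 fat it read 4.82, 4.74, 5.21 and 5.18 on the low-fat diet and 6.62, 6.66, 5.60 and 6.42 on the high-fat diet. The groups did not overlap, and the lowest high-fat value was that of replicate 7, an array with a wide Gapdh gap. The difference was 1.34 ± 0.25 or 2.53-fold (adjusted p = 0.0474, with 0.279% of all genes called), and it kept the call in only 3 of the 14 fits that left out an array, those without B6 high-fat 7, 129S6 high-fat 13 or 129S6 high-fat 14 (adjusted p up to 0.197 in the others). Without the 3 arrays of wide Gapdh gap it was 1.58 (adjusted p = 0.000158). In 129S6 fat Dhcr7 read 4.76, 4.71 and 4.82 on the low-fat diet and 4.84, 4.14 and 5.17 on the high-fat diet. The difference there was -0.05 ± 0.29 (adjusted p = 0.956), and no member was called in 129S6 (0.751% of all genes were called). The difference between the strains in this response was 1.38 ± 0.38, with an unadjusted p of 0.00291 and an adjusted p of 1. No gene of 8251 was called in that test (0%), and 232 had an unadjusted p under 0.05. At an unadjusted p under 0.05, 5 members were counted in B6 and 4 in 129S6, all higher, against 15.2% and 13.9% of all genes in either direction.

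**Figure D2:**
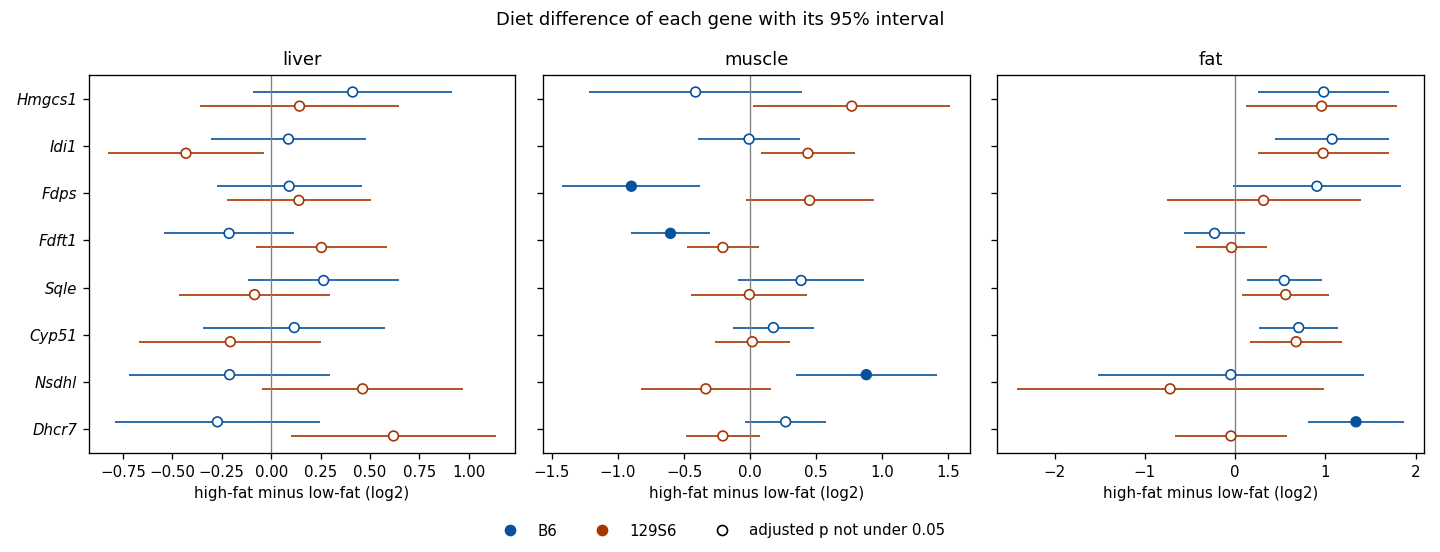
High-fat minus low-fat difference of each enzyme in log2 units (horizontal axes, which differ between panels) with its 95% interval, in B6 and 129S6 mice, by tissue; filled points have an adjusted p under 0.05. In fat, Hmgcs1, Idi1, Sqle and Cyp51 lie to the right of 0 in both strains, while in liver all 8 intervals of B6 include 0.

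Fdps was called in fat by 1 of its bright probe sets and not by the other. Fdps by 99098_at, the brightest there, read 9.26, 8.95, 8.00 and 8.45 in B6 on low-fat and 9.93, 9.60, 8.87 and 9.87 on the high-fat diet. In 129S6 on the high-fat diet it read 8.88, 7.41 and 9.85, a spread that covers the low-fat values of 8.58, 8.43 and 8.19. Its difference averaged over strains was 0.61 ± 0.33 (adjusted p = 0.248). By 160424_f_at, Fdps read 8.53, 8.16, 7.77 and 8.15 in B6 on low-fat and 8.96, 9.14, 9.40 and 9.19 on the high-fat diet. In 129S6 it read 8.20, 8.27 and 8.20 on low-fat and 8.97, 8.59 and 9.15 on the high-fat diet. Neither strain's groups overlapped by this probe set. The difference was 1.02 ± 0.16 in B6 (adjusted p = 0.0255 over all probe sets, of which 0.185% were called) and 0.85 ± 0.12 averaged over strains (adjusted p = 0.00382, with 3.53% called). The suffix of 160424_f_at marks a probe set whose probes can match a gene family, so signal of a near-identical copy cannot be told apart from that of Fdps. The other Fdps probe sets were dim, with means of 3.26 and 4.53 in fat.

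Nsdhl by 98631_g_at read 9.02, 8.97, 8.42 and 8.50 in B6 fat on the low-fat diet and 9.49, 9.59, 6.42 and 9.22 on the high-fat diet. In 129S6 it read 8.64, 8.06 and 8.20 on low-fat and 7.08, 6.34 and 9.31 on the high-fat diet. The 3 low values, 6.42, 7.08 and 6.34, came from the same 3 arrays that had the wide Gapdh gap. Without those arrays the difference averaged over strains was 0.86 (adjusted p = 0.00925), against -0.38 ± 0.52 with them. By 93868_at and 98630_at the average with all arrays was 0.40 ± 0.39 and 0.18 ± 0.24 (adjusted p = 0.539 and 0.665 over all probe sets), so none of its 3 probe sets was called. In that comparison 5 of the 8 rose, which were Idi1 at 0.94, Fdps by 99098_at at 1.30 (adjusted p = 0.00467), Cyp51 at 0.52, Nsdhl, and Dhcr7 at 0.99 (adjusted p = 0.000635). It leaves 1 high-fat array of 129S6, which is assumed to vary like the other groups. With the Gapdh gap as a covariate over all arrays, Idi1 went from 1.02 to 0.71 (adjusted p = 0.335) and Cyp51 from 0.69 to 0.41 (adjusted p = 0.428), and neither was called. Nsdhl (1.14, adjusted p = 0.0385) and Dhcr7 (1.11, adjusted p = 0.00338) were called in that fit. With the run of array numbers as a block, Idi1 was at 1.09 and Cyp51 at 0.67 (adjusted p = 0.0505 and 0.085).

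**Figure D3:**
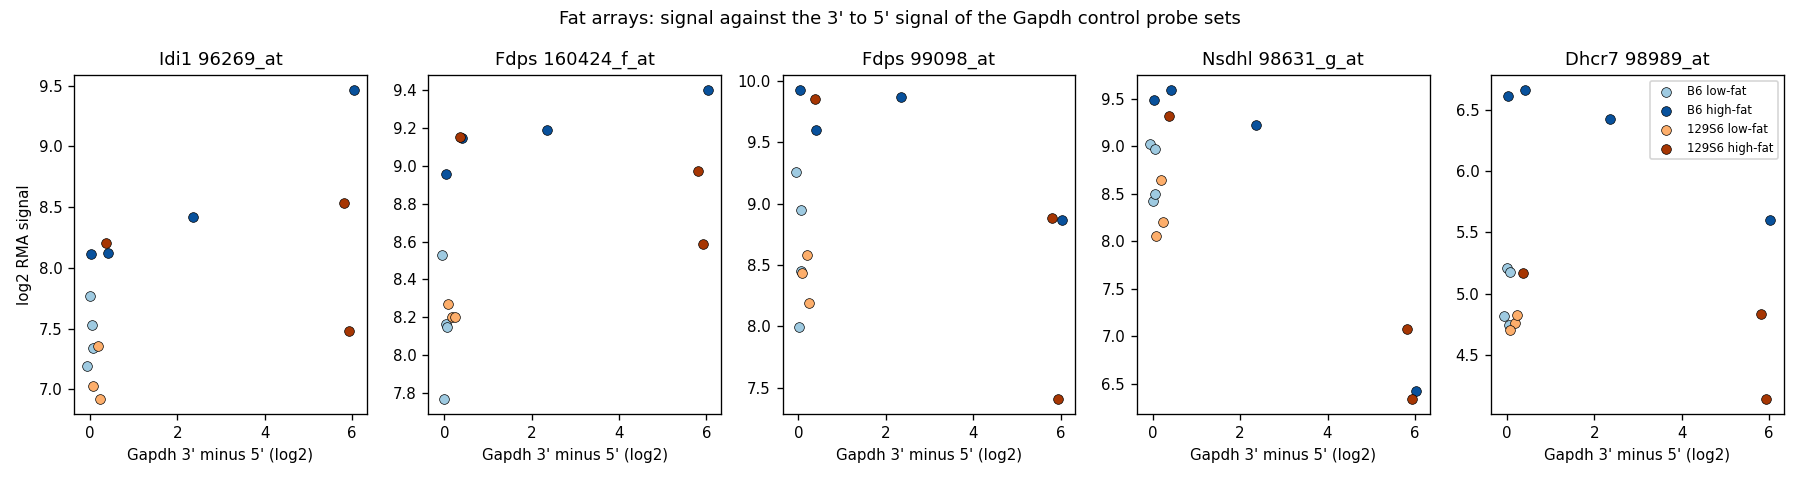
Signal in log2 units (vertical axes) of 5 probe sets on the 14 fat arrays against the 3' minus 5' signal of the Gapdh control probe sets in log2 units (horizontal axes), coloured by group. Nsdhl by 98631_g_at is at 6.34 to 7.08 on the 3 arrays at the right, while Fdps by 160424_f_at is higher on all high-fat arrays than on the low-fat arrays.

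Among 14 other listed enzymes of the pathway, 10 were measured, and 3 of these rose in fat with the strains averaged while none fell, beside 2.76% of all genes that were higher. They were Lss, lanosterol synthase (0.74 ± 0.10, adjusted p = 0.00194), Msmo1, a sterol methyl oxidase (0.80 ± 0.21, adjusted p = 0.0488), and Sc5d, a sterol desaturase (1.43 ± 0.31, adjusted p = 0.0245). The median difference of the 10 measured was 0.29. Lss also rose in 129S6 alone (0.80 ± 0.15, adjusted p = 0.0329). Of the sterol sensing genes 3 were measured and none was called, with 1 at an unadjusted p under 0.05. Srebf1, which encodes the SREBP-1 forms, was at -0.33 ± 0.11 (adjusted p = 0.0918), and Insig1, which holds SREBP in the endoplasmic reticulum, at -0.10 ± 0.08, neither called. Of 7 measured genes of lipoprotein uptake 2 rose, which were Npc2, a carrier of cholesterol out of lysosomes (0.84 ± 0.14), and Lrpap1, a chaperone of lipoprotein uptake proteins (0.90 ± 0.15). Of 5 measured genes of cholesterol efflux and removal, 1 rose, the sterol transporter Abcg1 (0.55 ± 0.12). Without the 3 arrays of wide Gapdh gap, 5 of the 10 enzymes rose (5.59% of all genes were called), and Abcg1 lost its call (0.37, adjusted p = 0.101). With the gap as a covariate 2 of the 10 rose (0.982% of all genes were called), and Msmo1, Sc5d, Lrpap1 and Abcg1 lost theirs. With the run as a block Lss, Npc2 and Lrpap1 kept theirs (1.44% of all genes were called), and Msmo1, Sc5d and Abcg1 did not.

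Macrophage markers moved with the diet in fat as well. All 7 had a positive difference in both strains, and 3 rose with the strains averaged, 4 without the arrays of wide Gapdh gap, 3 with the gap as a covariate and 2 with the run as a block. Their summed signal ran from 11.8 to 12.5 in B6 on low-fat and from 12.4 to 13.2 on the high-fat diet, and from 10.7 to 11.2 and from 12.0 to 13.1 in 129S6. Of 6 measured adipocyte markers 2 fell and 1 rose. The part of cell mixture in the differences of the enzymes was not tested.

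The diet differences in fat were compared with those in the other tissues in the fit over all arrays. Against liver, 2 of the 8 differed, Idi1 by 1.20 ± 0.24 (adjusted p = 0.00128) and Cyp51 by 0.73 ± 0.21 (adjusted p = 0.0163), where 15.5% of all genes differed. Both were called in all 45 fits that left out an array. Without the 6 arrays of Gapdh gap above 3 in the 3 tissues, Idi1 was called (1.03, adjusted p = 0.00261) and Cyp51 was not (0.48, adjusted p = 0.218), while Fdps by 99098_at (1.27), Nsdhl (0.89) and Dhcr7 (0.95) were, with 3.79% of all genes called. The liver runs cannot be taken as a block here, since no other group shares the run of the B6 low-fat livers. By 160424_f_at, Fdps also differed (0.78 ± 0.20, adjusted p = 0.00935 over all probe sets, with 14.3% called). Against muscle, Idi1 (0.81 ± 0.25, adjusted p = 0.0311) and Fdps (1.03 ± 0.34 by 99098_at, adjusted p = 0.0468) differed, with 10.4% of all genes called. Idi1 kept that call in 39 of the 45 fits that left out an array, and lost it without muscle B6 low-fat 15, B6 high-fat 7 or 129S6 high-fat 2, or fat 129S6 low-fat 10 or 11 or high-fat 12 (adjusted p up to 0.0764). Fdps by 99098_at kept its call in 13 (adjusted p up to 0.102), and missed it with the fat run as a block (1.08, adjusted p = 0.0512). Without the 6 arrays of wide gap Idi1, Fdps, Nsdhl and Dhcr7 were called, with 14.4% of all genes. Fdps by 160424_f_at gave 1.07 ± 0.21 there (adjusted p = 0.00124 over all probe sets, with 9.45% called). Between liver and muscle none of the 8 differed (0 called by limma, 1 at an unadjusted p under 0.05, with 1.43% of all genes called). These comparisons share the arrays of each tissue.

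The strains differed in fat for Dhcr7 on the high-fat diet, where the B6 arrays read 5.60 to 6.66 and the 129S6 arrays 4.14 to 5.17. The difference was 1.61 ± 0.27 or 3.05-fold (adjusted p = 0.0154, with 0.436% of all genes called). It missed the threshold without B6 replicate 8 (adjusted p = 0.0598), 129S6 replicate 12 (0.0564) or 129S6 replicate 13 (0.0566), and also with the run as a block (1.62, adjusted p = 1). All B6 fat arrays were of run F1 and all 129S6 high-fat arrays of run F2, and 129S6 low-fat replicate 9 was the one 129S6 array of F1. On the low-fat diet no member differed by limma, with 1 at an unadjusted p under 0.05 and 1.08% of all genes called. That member was Cyp51, at 5.59 ± 0.31 (SD, n = 4) in B6 and 5.04 ± 0.07 (SD, n = 3) in 129S6, a difference of 0.54 ± 0.22 (adjusted p = 0.452).

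In liver, none of the 8 enzymes was called for diet in either strain. In B6 mice 18.2% of all genes differed with diet, while limma called 0 of the 8 and none had an unadjusted p under 0.05. The median difference of the 8 was 0.09. The widest was Hmgcs1, which read 9.36, 9.28, 9.01 and 9.64 on the low-fat diet and 9.75, 9.64, 9.64 and 9.92 on the high-fat diet, a difference of 0.41 ± 0.24 (95% interval -0.09 to 0.91, adjusted p = 0.237). With the spread of the array as a covariate 4 were called, Hmgcs1 (1.14, adjusted p = 0.00665), Idi1, Sqle and Cyp51. In that fit 1006 of all 8251 genes were called. In 129S6 mice 0.23% of all genes differed, and limma called 0 of the 8, with 2 at an unadjusted p under 0.05. These were Dhcr7 at 0.62 ± 0.25 (adjusted p = 0.676) and Idi1 at -0.43 ± 0.19 (adjusted p = 0.746). With the strains averaged 0 of the 8 were called and none had an unadjusted p under 0.05, with 6.91% of all genes called. For the contrast of the diet differences of both strains, 0 of the 8 were called, with 1 at an unadjusted p under 0.05 and 5.49% of all genes called. Of 10 other measured enzymes of the pathway, 1 fell and 1 rose in B6 liver, near the share of all genes. Ebp, a sterol isomerase, fell (-0.61 ± 0.12, adjusted p = 0.00195) and Hsd17b7, a sterol ketoreductase, rose (0.79 ± 0.22, adjusted p = 0.0229). Srebf1 rose in 129S6 liver (0.76 ± 0.12, adjusted p = 0.0232).

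The strains differed in liver for 3 enzymes on the low-fat diet, and they did not go the same way. Idi1 read 9.22, 9.44, 9.24 and 9.74 in B6 and 10.00, 9.78, 10.73 and 10.50 in 129S6, so every 129S6 array was higher. The difference was -0.84 ± 0.19 (adjusted p = 0.00672, with 13.8% of all genes called), and it was called in all 16 fits that left out an array and in the 9 other alternatives. Sqle read 7.78, 8.22, 8.16 and 8.58 in B6 and 8.47, 8.48, 9.28 and 9.18 in 129S6, overlapping through B6 replicate 4. Its difference was -0.67 ± 0.18 (adjusted p = 0.0221), and the call was lost without B6 replicate 1 (0.0635) or 129S6 replicate 12 (0.0588). Hmgcs1, upstream of both, read 8.23, 7.90, 9.33 and 8.88 in 129S6 and was higher in B6 by 0.74 ± 0.24 (adjusted p = 0.0485). That call held in 4 of the 16 fits that left out an array, those without B6 low-fat 3, 129S6 low-fat 11 or 12, or 129S6 high-fat 9 (adjusted p up to 0.163 in the others). It was also lost with all probe sets tested (0.0523), quantile normalization (0.0949), only the groups compared (0.144) and an intensity trend (0.0558). With the spread of the array as a covariate the difference was -0.000678 (adjusted p = 0.999). On the high-fat diet Hmgcs1 alone of the 8 differed (5.16% of all genes were called), at 9.74 ± 0.13 (SD, n = 4) in B6 and 8.73 ± 0.31 in 129S6. The groups did not overlap, and the difference was 1.01 ± 0.24 or 2.01-fold (adjusted p = 0.0205, and 0.0614 to 0.0751 without B6 replicate 16 or 129S6 replicate 7 or 10).

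Values also lay apart between runs of array numbers within a group, which was not tested. The 129S6 low-fat livers fall into 2 arrays of run L2 (replicates 5 and 6) and 2 of run L3 (replicates 11 and 12). The L3 arrays were brighter by 1.04 for Hmgcs1, 0.90 for Cyp51, 0.76 for Sqle and 0.73 for Idi1, and L3 minus L2 was 0.34 for Fdft1, -0.20 for Fdps, -0.40 for Dhcr7 and -0.69 for Nsdhl. Replicate 11 is the liver array of wide Gapdh gap. The L3 values lie above both L2 values for each of the first 4. With the run as a block, the high-fat strain difference of Hmgcs1 went from 1.01 to -0.03 (adjusted p = 0.957), while Idi1 (-1.05, adjusted p = 0.0322) and Sqle (-1.07, adjusted p = 0.0156) were then lower in B6. The high-fat B6 livers were all of run L3 and the high-fat 129S6 livers all of run L2. That block thus rests on the 129S6 low-fat livers, the only group with arrays in both runs, replicate 11 included. All B6 low-fat livers were of run L1, which holds no other group, so run and group cannot be told apart in the low-fat strain difference and in the B6 diet difference. Within run L2 alone, the diet difference in 129S6 was 0.66 for Hmgcs1, 0.29 for Sqle and -0.07 for Idi1, none of them called (adjusted p = 0.309, 0.54 and 0.949).

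**Figure D4:**
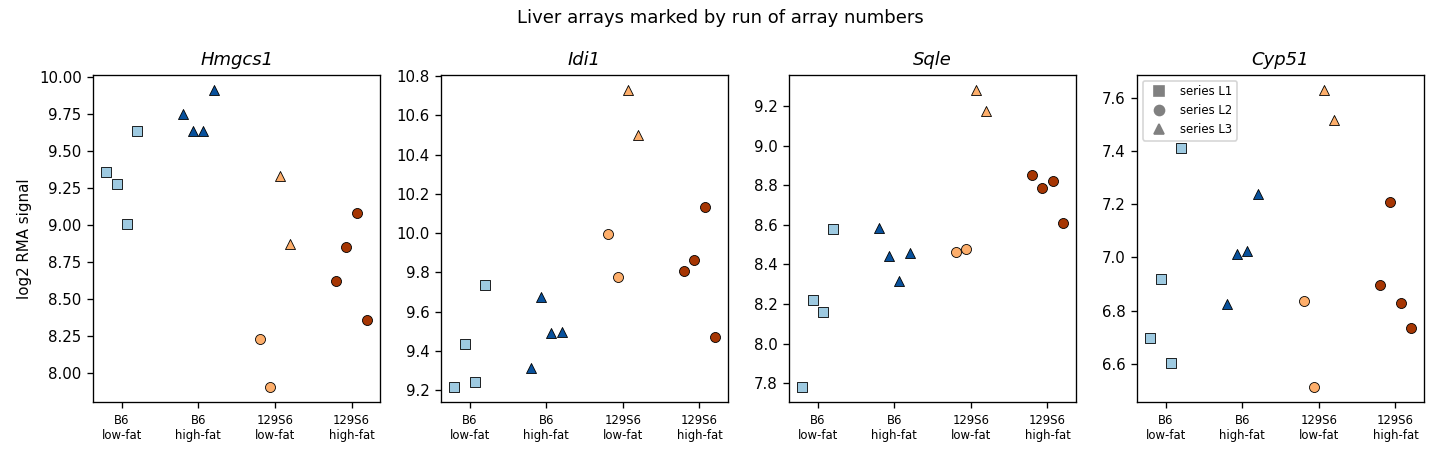
Signal of 4 enzymes in log2 units (vertical axes) on the 16 liver arrays by group, with the marker shape giving the run of array numbers. Among the low-fat 129S6 livers the 2 arrays of run L3 (triangles) lie above the 2 of run L2 (circles) in each panel.

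In muscle of B6 mice 3 of the 8 enzymes differed with diet, with 26.8% of all genes called. Fdps by 160424_f_at, the brightest there, read 8.00, 7.72 and 7.52 on the low-fat diet and 7.01, 6.64, 6.66 and 7.09 on the high-fat diet. It fell without overlap (-0.90 ± 0.24, adjusted p = 0.022), and 99098_at gave -1.01 ± 0.29 (adjusted p = 0.0252 over all probe sets, of which 26% were called). Fdft1, the enzyme that uses its product, read 8.52, 8.69 and 8.41 on the low-fat diet and 7.99, 7.86, 8.19 and 7.71 on the high-fat diet. It fell by 0.60 on the log2 scale (SE 0.14, adjusted p = 0.0131), and after quantile normalization the difference was -0.39 (adjusted p = 0.135). Nsdhl by 98630_at rose by 0.88 ± 0.25 (adjusted p = 0.0242), but by 93868_at and 98631_g_at it gave -0.15 ± 0.19 and 0.30 ± 0.20 (adjusted p = 0.545 and 0.251 over all probe sets). The 3 probe sets of Nsdhl thus disagree in muscle. Calls were lost without B6 low-fat 13 or 14 for all 3 enzymes, without B6 high-fat 6 for Fdps and Nsdhl, and without B6 high-fat 7 for Fdps (adjusted p up to 0.102 for Fdps, 0.0598 for Fdft1 and 0.121 for Nsdhl). The median of all genes moved by 0.16 in this comparison and that of the 8 by 0.08.

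In 129S6 muscle 0 of the 8 and no gene at all was called for diet by limma (0%), with 2 members at an unadjusted p under 0.05. They were Hmgcs1 at 0.77 ± 0.35 and Idi1 at 0.44 ± 0.17 (adjusted p = 0.992 for each). The diet difference of Fdps differed between the strains by -1.35 ± 0.33 (adjusted p = 0.0446, with 3.19% of all genes called), and the call held in 5 of the 15 fits that left out an array, those without B6 high-fat 5 or any 129S6 low-fat array (adjusted p up to 0.138 in the others). By 99098_at it was -1.18 ± 0.39 (adjusted p = 0.0764 over all probe sets). Without both muscle arrays of Gapdh gap above 3 the value by 160424_f_at was -1.35 (adjusted p = 0.0675). With the strains averaged 0 of the 8 were called, with 1 at an unadjusted p under 0.05 and 0% of all genes called. That member was Fdft1, at -0.40 ± 0.09 (adjusted p = 0.0834).

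Between the strains on the high-fat diet 4 of the 8 differed in muscle, with 29.3% of all genes called. Hmgcs1 was lower in B6 (-1.15 ± 0.35, adjusted p = 0.0263), as were Idi1 (-0.61 ± 0.17, adjusted p = 0.0186) and Fdps (-1.16 ± 0.23, adjusted p = 0.00492). Nsdhl by 98630_at was higher (1.00 ± 0.23, adjusted p = 0.00918), which its other probe sets did not show (-0.31 and -0.17, with adjusted p = 0.175 and 0.487 over all probe sets, of which 28.3% were called). Hmgcs1 read 7.05, 5.58, 5.12 and 6.69 in B6 and 7.75, 6.98, 7.13 and 7.20 in 129S6. The low arrays were B6 replicates 6 and 7, and the call was lost without either of them (adjusted p = 0.0797 and 0.0758) and without 129S6 high-fat 1 or 4 (0.0712 and 0.0574). Idi1 lost its call without 129S6 high-fat 1 (0.0523) and without both muscle arrays of Gapdh gap above 3 (-0.55, adjusted p = 0.0532). On the low-fat diet limma called 0 of the 8, with 1 at an unadjusted p under 0.05 and 0.279% of all genes called. That member was Dhcr7 at -0.43 ± 0.14 (adjusted p = 0.561).

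The spread of the arrays moved with these differences in muscle, and its part in them was not tested beyond the values that follow. The B6 high-fat arrays had an SD over probe sets of 1.59 to 1.70. Summed muscle markers, all 8 measured, ran from 14.9 to 15.6 there, from 15.5 to 15.7 in B6 on low-fat, from 13.8 to 15.7 in 129S6 on low-fat and from 15.6 to 15.7 in 129S6 on high-fat. The one other array below 1.80 was 129S6 low-fat replicate 9 at 1.57, of neither that strain nor that diet, and it read 6.75 for Fdps by 160424_f_at, 8.21 for Nsdhl by 98630_at and 7.70 for Sqle. The other 129S6 low-fat arrays read 7.61 to 7.97, 7.18 to 7.23 and 6.49 to 6.92 for these. With the SD of the array as a covariate, none of the 8 was called for diet in B6, for strain on the high-fat diet or for the difference between the strains. Over all 8251 genes, 61, 133 and 4 were called in these comparisons, against 2214, 2414 and 263 without the covariate. The diet difference in B6 was then -0.15 for Fdps (adjusted p = 0.76), 0.20 for Nsdhl (adjusted p = 0.735) and -0.74 for Fdft1 (adjusted p = 0.0667).

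**Figure D5:**
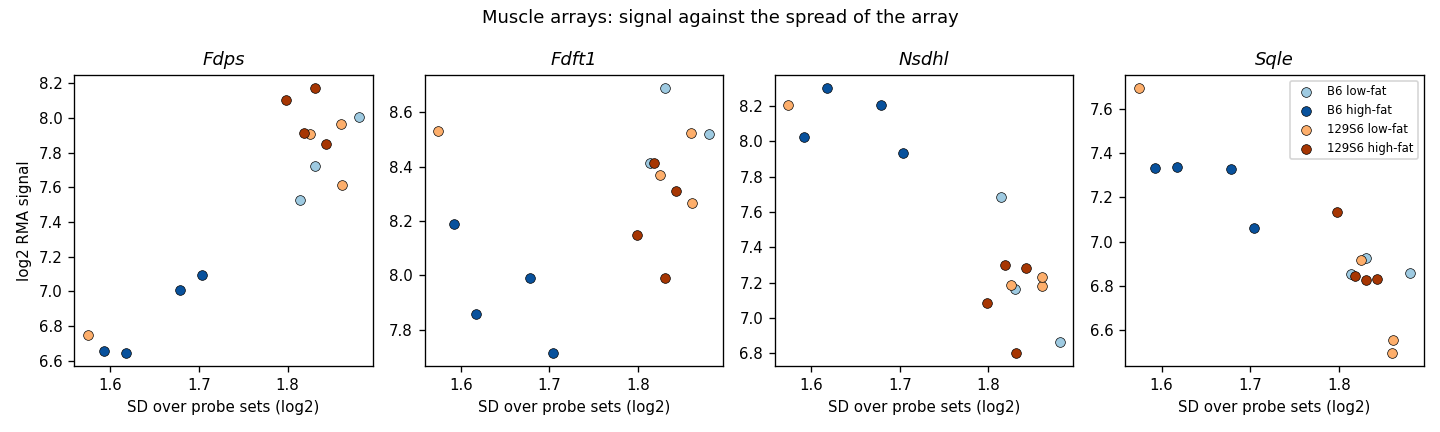
Signal of 4 enzymes in log2 units (vertical axes) on the 15 muscle arrays against the SD over probe sets of the array in log2 units (horizontal axes), coloured by group, with Fdps by 160424_f_at and Nsdhl by 98630_at. The 129S6 low-fat array at an SD of 1.57 lies with the B6 high-fat arrays for Fdps, Nsdhl and Sqle, but not for Fdft1.

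Among themselves the enzymes varied together in part. Over the 28 pairs, the correlation across the arrays of a tissue ran from -0.459 to 0.864 in liver, -0.951 to 0.75 in muscle and -0.646 to 0.881 in fat, with medians of 0.0154, -0.164 and 0.361. With group means removed the medians were 0.458, -0.0249 and -0.0332, so that liver then had the highest and fat did not. In fat the closest pairs were Idi1 with Cyp51 (0.88), Idi1 with Sqle (0.85) and Sqle with Cyp51 (0.82) over 14 arrays, and with group means removed these were 0.71, 0.59 and 0.53. In liver Idi1 and Sqle were closest across arrays (0.864 over 16 arrays, and 0.816 with group means removed), while Hmgcs1 and Idi1 were closest with group means removed (0.895, against -0.228 across arrays). Nsdhl ran against Hmgcs1 in fat (-0.65), where 98631_g_at was low on the 3 arrays of wide Gapdh gap. These values share libraries, pools and array quality and are a description.

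The genes most like the mean of the 8 over the arrays of a tissue were read from all genes measured. In fat they were Ebp (correlation 0.915), Maoa (0.906), Cyb5b (0.905), Higd2a (0.892) and Cmtm3 (0.874). Ebp is itself an enzyme of the pathway. With group means removed, the correlations were 0.85 for Ebp, 0.624 for Maoa, 0.666 for Cyb5b, 0.853 for Higd2a and 0.463 for Cmtm3. The mean of the 8 in fat was lowest on 129S6 high-fat replicate 13 (-0.58), an array of wide Gapdh gap. In liver they were Ythdc1 (0.844), Seh1l (0.793), Cmpk1 (0.783), Tardbp (0.775) and Lmo7 (0.754). In muscle they were Bcl10 (0.876), Copg1 (0.825), Tom1l1 (0.788), Kifap3 (0.773) and Rb1 (0.772), over 15 arrays that include those of low spread.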

How the data were processed

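The 45 Affymetrix arrays, of 1 colour, held RNA of 3 tissues. The deposited values are log2 signals that the authors made with RMA, per the submitters' processing notes. RMA removes background, gives the arrays processed together 1 common distribution and then sums up each probe set, which can shrink differences that many genes share. Its version, and which arrays were normalized together, are not given in the labels. Of 12488 probe sets, 10833 carried 1 gene symbol, 396 several and 66 were controls.

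Each tissue was fitted with limma 3.58.1 in R 4.3.3 on 8251 genes, with the brightest probe set of each gene, a mean for each of 4 groups, and two-sided tests adjusted by Benjamini and Hochberg (threshold 0.05). Tissues were compared in a fit of 12 groups over all arrays. Other probe sets were read from a fit of all 10833. Members and lists were chosen with earlier results of these data known, and the averages over strains and the tissue comparisons of diet were added after the data were seen. Genes named beside the members were, for each list and comparison, up to 4 past the threshold with the smallest adjusted p, plus a few regulators, and the 5 genes most like the members in each tissue. The text gives some of these.

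Alternatives were all probe sets, probe sets without a letter code, no dim genes (1 part in 3), quantile normalization, fitting just the groups of a comparison, a robust prior with an intensity trend, array quality as a covariate, arrays of Gapdh gap above 3 left out, array runs as a block or alone, a replicate block, and leaving out each array. The pipeline was tested on simulated data. Replicate numbers shared by groups of different tissues were not taken as pairs. Of 12 same-numbered pairs 2 correlated above 0.1 (range -0.42 to 0.302), as did 45 of 156 pairs of other numbers. Such correlations cannot show whether arrays came from the same mice. No 2 arrays were identical (0 pairs). The number of arrays limits the precision. Promoter windows were from RefSeq, build GRCm38.p6. Plots were made in Python 3.11.15 (matplotlib 3.10.9).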

Additional observations from a re-analysis of the deposited data

Results flagged for a closer look

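Of 72 sets of 4 arrays (a gene in a group) tested with Dixon's criterion, 8 had an array that stood apart, where chance gives about 1 in 20. In liver these were Fdft1 at 8.92 on B6 high-fat replicate 13 and Dhcr7 at 6.49 on B6 low-fat replicate 3, both below their group. In muscle, Sqle stood at 7.06 on B6 high-fat replicate 8, below the others, and at 7.14 on 129S6 high-fat replicate 2, above them. Nsdhl stood at 8.21 on 129S6 low-fat replicate 9, above the others, on the muscle array of smallest spread over probe sets (SD 1.57). In fat, Sqle at 8.78 and Nsdhl at 6.42 came from B6 high-fat replicate 7, which had the widest Gapdh gap (6.03). Cyp51 stood at 6.04 on B6 low-fat replicate 4, above the other 3.

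The diet difference itself differed between groups in 5 cases. In muscle, that of Fdps was -1.35 in B6 minus 129S6. Between tissues, with strains averaged, Idi1 differed by 1.20 and Cyp51 by 0.73 in fat minus liver. In fat minus muscle, Idi1 differed by 0.81 and Fdps by 1.03. These tissue differences use the same fat arrays.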

How the results depend on the processing

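Diet and strain calls within a tissue kept their direction and side of the threshold in 114 of 147 refits under other settings and in 170 of 240 with an array left out. Calls between tissues did so in 183 of 188 and 1176 of 1215. Among the 147 refits, the fat fit of all probe sets was repeated with Fdps read from its other bright probe set. For the enzymes called in fat, that repeat gave the same values again. The cause of the changes below was not tested.

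In liver, with only the groups compared in the fit, 1 member was called for diet in B6 (Hmgcs1), 1 for strain on low-fat (Idi1) and 3 for strain on high-fat (Hmgcs1, Sqle and Nsdhl). Over all 8251 genes, these fits called 2194, 500 and 914. With the Gapdh gap as a covariate, 2 were called for diet in B6, 2 for strain on high-fat, 2 for the difference between the strains and 1 for the average. That setting called 1673, 705, 1022 and 337 genes in turn. With the array SD as a covariate, 4 were called for diet in B6, 4 for the difference between the strains and 1 for the average, and Hmgcs1 for strain on low-fat went to -0.000678. Genes called for diet in B6, the difference and the average then numbered 1006, 822 and 246. Without arrays of Gapdh gap above 3, 2 were called for strain on high-fat, with 762 genes called. With the array run as a block 2 were (Idi1 and Sqle), with 167 genes called, and Hmgcs1 went to -0.029.

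In muscle, the Gapdh covariate gave 5 for diet in B6 and 4 for the difference between the strains. It called 2529 and 1342 of all 8251 genes there, against 2214 and 263 in the main fit. The SD covariate gave 0 for diet in B6, 0 for strain on high-fat, 0 for the difference and 1 for the average (Fdft1). Genes called under it numbered 61, 133, 4 and 88. For the difference, probe sets without a letter code gave 0, leaving out dim genes 2 (Fdps and Nsdhl), and leaving out arrays of Gapdh gap above 3 gave 0. Those fits called 278, 392 and 0 genes.

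In fat, diet in B6 gave 0 with all probe sets, without letter codes, without dim genes (which drops Dhcr7), with only the groups compared, with the trend, with the SD covariate and with the run block, and 3 without the arrays of wide Gapdh gap. Diet in 129S6 gave 1 with only the groups compared (Cyp51). Without the arrays of wide Gapdh gap it rests on 1 high-fat array, so no count is given. Strain on low-fat gave 1 without those arrays (Cyp51), with 673 genes called. Strain on high-fat gave 0 without dim genes, 0 with only the groups compared and 0 with the run block. The average gave 1 with the SD covariate and 0 with the run block, where 184 and 119 genes were called. For diet in B6, the settings that gave 0 called 20 probe sets, then 13, 33, 1, 13, 1 and 12 genes, in the order named. Without the arrays of wide Gapdh gap, 182 genes were called for diet in B6. For strain on high-fat they called 30, 9 and 4 genes. For diet in 129S6, 186 genes were called with only the groups compared. Leaving out dim genes drops Cyp51 from fat as well as Dhcr7.

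Leaving out each array in turn gave 1 to 4 for liver strain on low-fat, 0 to 2 for liver strain on high-fat, 0 to 4 for muscle diet in B6, 2 to 5 for muscle strain on high-fat, 0 to 2 for the muscle difference, 0 to 4 for the muscle average, 0 to 1 for fat diet in B6, 0 to 3 for fat diet in 129S6, 0 to 3 for fat strain on high-fat, 0 to 5 for the fat average, 7 to 8 for fat against muscle and 0 to 3 for diet in fat minus muscle. With the replicate block over tissues (correlation -0.0846), 8, 7 and 8 members were called for the tissue differences and 1 for diet in fat minus muscle (Idi1). No paired analysis was possible within a tissue because its groups share no replicate number. Settings added after the data were seen gave 4 for diet in fat minus liver and 4 in fat minus muscle without arrays of Gapdh gap above 3, and 1 in fat minus muscle with the fat run as a block.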

Other observations

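In muscle, Npc2, a carrier of cholesterol out of lysosomes, read lower in B6 on the high-fat diet, where it fell by 1.60 on the log2 scale (SE 0.28, limma's adjusted p = 0.00579). Lrpap1, a chaperone of lipoprotein uptake proteins, fell there by 0.34 (SE 0.12, adjusted p = 0.0433). These B6 high-fat muscle arrays are those of small spread over probe sets, and the part of that spread in the differences was not tested. In fat, Npc2 was higher in B6 than in 129S6 on the low-fat diet, by 1.18 ± 0.20 (adjusted p = 0.0125).

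In liver, Sc5d, a sterol desaturase, was higher in B6 than in 129S6 on both diets, by 1.40 ± 0.29 on low-fat (adjusted p = 0.00406) and by 1.46 ± 0.29 on high-fat (adjusted p = 0.00622). The probe set that reads it there can match a gene family, by its letter code, and the arrays of the low-fat B6 livers were of a run that holds no other group. The high-fat livers of B6 and 129S6 were also of different runs. Abcg1, a sterol transporter, rose with the high-fat diet in B6 liver by 0.53 ± 0.08 (adjusted p = 0.00056, with 18.2% of all genes called). In 129S6 it was at -0.01 ± 0.08 (adjusted p = 0.993, with 0.23% called). The difference between the strains was 0.54 ± 0.12 (adjusted p = 0.015, with 5.49% called). The low-fat and high-fat B6 livers were of different runs, so diet and run cannot be told apart in the B6 value or in this difference.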
